A study of Hyphopichia burtonii with 8 samples.

Results

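The genes described here are 45 of the 6166 genes listed for the yeast Hyphopichia burtonii, selected on their measured FPKM because they stood higher in medium with NaCl and in medium with KCl than in medium with sorbitol or in plain medium. A gene was taken when the lowest of its 4 salt libraries reached 10 FPKM (fragments per kilobase, scaled to the depth of the library) and was at least 1.5 times the highest of its 4 sorbitol and YPD libraries. Its lower NaCl library also had to lie under 2 times the highest of the 6 other libraries, which leaves out genes far higher in NaCl than in KCl, and 14 gene IDs were removed by name. The level and ratio conditions took 63 genes, the limit on NaCl removed 14 of them, and the ID list removed a further 4 (MLS1, ICL1, MET3 and DDR48). The values that chose these genes are therefore given below as a description. Sorbitol against YPD is the 1 difference between media on which the choice set no threshold, although the choice read the values of both media and its removals touched this difference too. For the 45 genes it is the only difference read as a test. Their calls in the other differences are given as a description, because the choice shaped them in advance.

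The yeast was wild-type strain KJJ43, from the Korean fermentation starter Nuruk. Cells from a preculture were moved at an OD600 of 0.6 into YPD (yeast extract, peptone and glucose) with 1 M NaCl, with 1 M KCl, with 1 M sorbitol or with no addition, and kept there for 1 h before RNA was taken from cells equal to an OD of 5. Each of the 4 media had 2 libraries, 8 in all, written below as NaCl 1, NaCl 2 and so on. The strain and the base medium were shared by every library, and no strain with a gene removed was included.

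A cell placed in a concentrated solute loses water, whatever the solute, and yeasts answer through a stress kinase cascade that raises their internal glycerol. Salts add ions to this: sodium is toxic and is pumped out or stored in the vacuole, potassium is the main cation that cells take up, and chloride comes with both. Sorbitol carries no charge and stays one particle in solution, whereas each salt splits into cation and anion, so at equal molarity the salts also have the higher osmolarity. In these libraries the presence of ions and the higher osmolarity cannot be told apart.

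Gene symbols come from the RefSeq annotation of another strain of the species, where all 45 genes had an entry. A symbol was present for 14 of them (31.1%), against 2335 of the 5765 genes tested (40.5%), and the other 31 are known here by ID alone, so no role is given for them. Roles named below are background from other yeasts. The annotated genes fall into DNA replication and chromosome cohesion (POL1, POL30, RFA2, SMC1 and PDS5), glycosylation and the cell surface (PMT4, MNT2, GPI19 and CRH11), lipids (GDE1, PDR16 and CEM1), superoxide removal (SOD1) and repression of filamentous growth (RFG1), a grouping made after the genes were known.

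Summed FPKM per library was lowest in NaCl 1 and NaCl 2 (1197308 and 1209649) and highest in sorbitol 1 and sorbitol 2 (1649003 and 1520928). The genes at 1 FPKM or more numbered 5624 to 5699, fewest in sorbitol 1 and sorbitol 2 (5624 and 5625). Fragment counts were not given, but low values, times gene length less a fitted 200 or 210 nt, fell near multiples of 1 step per library. This step puts a gene at 10 FPKM at about 153 fragments per kb of that shortened length in KCl 2, the shallowest library. In YPD 2, the deepest, it gives about 336. FPKM is a share of the RNA in a library, so a lower total of other RNA and more RNA of a gene cannot be told apart. Whether the 2 libraries of a medium came from separate cultures is not stated in the sources used, and the p-values below cover the spread between these libraries alone, which may be technical.

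By the mean of the salt libraries over the mean of the others, the 45 genes stood 2.72 times higher in salt at the median and 1.77 to 21.1 times over the range. The ratio of the lowest salt library to the highest sorbitol or YPD library ran from 1.51 to 11.1 with a median of 1.78, was under 2 in 31 genes, and reached 4 in 5 genes. Means over the libraries gave a median of 3.30 times YPD in NaCl (1.72 to 67.3) and 2.50 times YPD in KCl (1.61 to 30.2). Set against sorbitol, the medians were 3.07 times in NaCl (1.73 to 41.0) and 2.28 times in KCl (1.64 to 23.9). KCl was the salt with the smaller difference in most genes: the lowest salt library was KCl 1 in 22 genes, KCl 2 in 18, NaCl 1 in 3 and NaCl 2 in 2. The highest library without salt was YPD 2 in 15 genes, sorbitol 2 in 14, sorbitol 1 in 11 and YPD 1 in 5, so neither salt-free medium alone set the threshold.

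**Figure D1:**
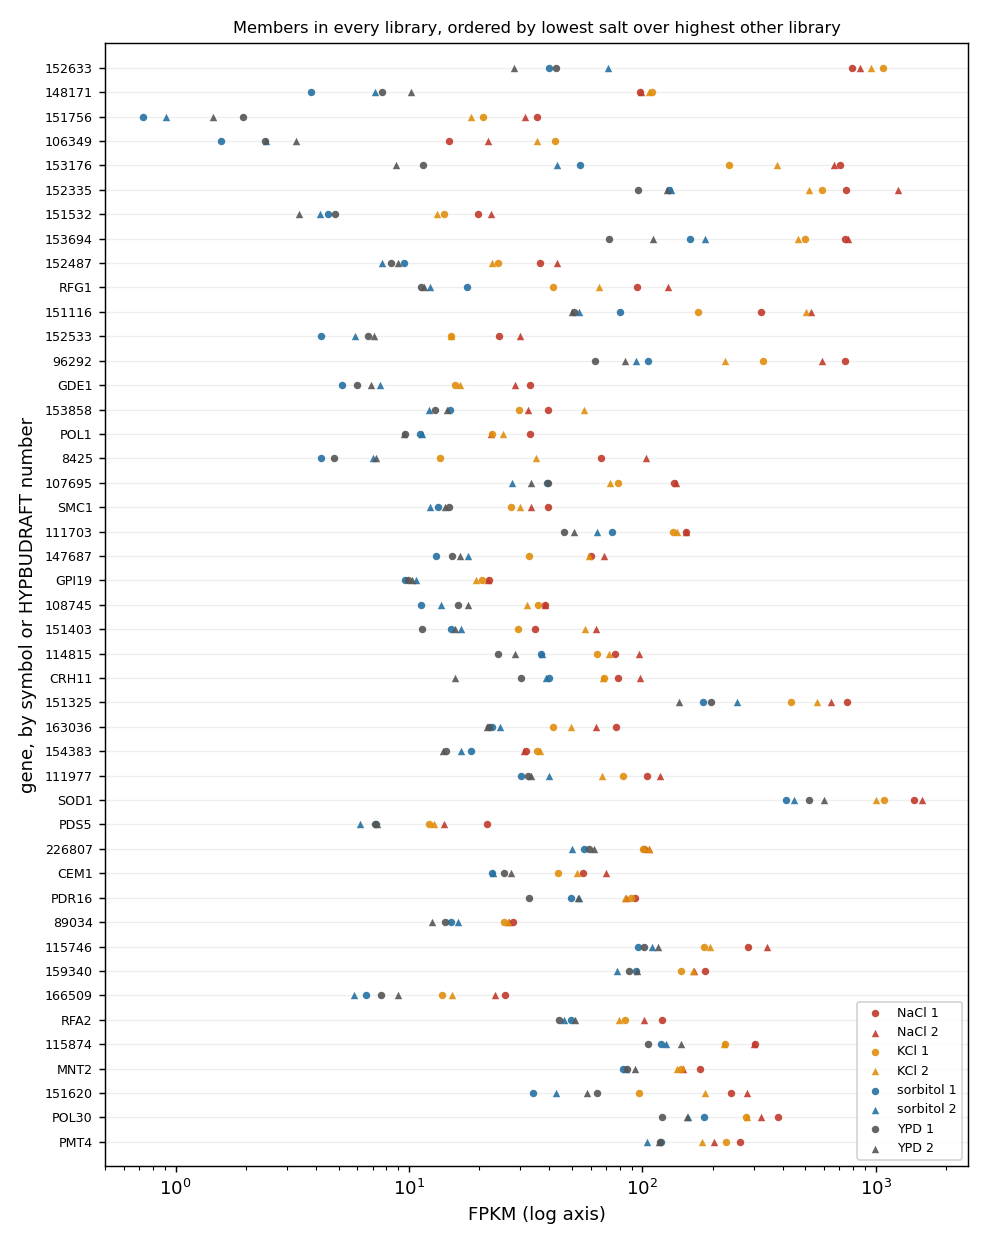
FPKM (log axis) of the 45 genes in each of the 8 libraries, coloured by medium with circles for replicate 1 and triangles for replicate 2, ordered from the largest ratio of lowest salt to highest salt-free library (11.1, at the top) to the smallest (1.51). The gap between the salt and salt-free points, wide in the top 5 rows, narrows to about the threshold of 1.5 in the lowest rows.

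Just inside the ratio threshold lay PMT4 and POL30, both at 1.51. Just outside lay DAG7 and MSH6, both at 1.47, the second a protein of DNA mismatch repair. MSH6 had 31.1 and 26.6 FPKM in NaCl and 23.8 and 28.3 in KCl, against 14.4 and 13.5 in sorbitol and 15.9 and 16.2 in YPD. DAG7 had 519 and 336 FPKM in NaCl and 224 and 188 in KCl, against 128 and 100.2 in sorbitol and 106 and 121 in YPD. HYPBUDRAFT_142817 missed the level threshold with 9.40 FPKM in NaCl 2, and HYPBUDRAFT_134640 missed the limit on NaCl with its lower NaCl library at 2.03 times the highest other library.

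The 5 largest ratios all belonged to genes with no symbol. HYPBUDRAFT_152633 was the gene with the largest ratio, 11.1, and also among the most abundant. It had 791 and 858 FPKM in NaCl and 1075 and 952 in KCl, against 39.8 and 71.3 in sorbitol and 42.7 and 28.1 in YPD. Its KCl libraries were above its NaCl libraries, and its means were 14.8 times sorbitol in NaCl and 18.2 times sorbitol in KCl. HYPBUDRAFT_148171 had 97.7 and 98.5 FPKM in NaCl and 110.3 and 107 in KCl, against 3.80 and 7.15 in sorbitol and 7.64 and 10.2 in YPD. In this gene the salts differed by little, a NaCl mean of 0.904 times the KCl mean. HYPBUDRAFT_151756 was nearly silent without salt: it had 35.5 and 31.5 FPKM in NaCl and 20.7 and 18.4 in KCl, against 0.723 and 0.913 in sorbitol and 1.95 and 1.44 in YPD. Its NaCl mean of 41.0 times sorbitol was the widest salt to sorbitol difference of the 45 genes. HYPBUDRAFT_106349 had 14.8 and 21.8 FPKM in NaCl and 42.1 and 35.5 in KCl, against 1.56 and 2.44 in sorbitol and 2.41 and 3.27 in YPD, the clearest case of a gene higher in KCl. HYPBUDRAFT_153176 had 703 and 661 FPKM in NaCl and 234 and 376 in KCl, against 54.2 and 43.2 in sorbitol and 11.5 and 8.79 in YPD. Here all 4 media stood apart in order, with sorbitol above YPD and KCl above sorbitol.

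The genes of highest mean level over the salt libraries were SOD1, HYPBUDRAFT_152633, HYPBUDRAFT_152335, HYPBUDRAFT_153694 and HYPBUDRAFT_151325. HYPBUDRAFT_152335 had 749 and 1242 FPKM in NaCl and 589 and 517 in KCl, against 130.4 and 133 in sorbitol and 96.3 and 128 in YPD. HYPBUDRAFT_153694 had 739.9 and 762 FPKM in NaCl and 500.5 and 466 in KCl, against 160.3 and 185 in sorbitol and 72.1 and 112 in YPD. HYPBUDRAFT_151325 had 757 and 643 FPKM in NaCl and 434 and 559 in KCl, against 182 and 255 in sorbitol and 197 and 144 in YPD. In the first of these the spread within NaCl was as wide as the step between salts, and in the third the sorbitol and YPD libraries overlapped. Across the 45 genes the mean salt level ran from 15.2 to 1284 FPKM with a median of 82.6. In the libraries without salt their median level was 29.4 FPKM, against 34.8 FPKM over all genes tested. By the mean over all 8 libraries, salt included, 5 of the 45 were among the top 10% of genes.

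The 5 annotated genes of replication and cohesion stood at 1.64 to 2.90 times their salt-free level, by the mean of either salt over the mean of sorbitol or YPD. POL1, the catalytic subunit of DNA polymerase alpha, which starts new DNA strands, had 32.9 and 22.5 FPKM in NaCl and 22.8 and 25.3 in KCl, against 11.2 and 11.4 in sorbitol and 9.61 and 9.52 in YPD. POL30, the sliding clamp PCNA that holds polymerases on DNA, had 382 and 324 FPKM in NaCl and 278 and 282 in KCl, against 185 and 157 in sorbitol and 121 and 156 in YPD. RFA2, a subunit of the protein RPA that coats single-stranded DNA, had 121 and 101 FPKM in NaCl and 84.2 and 79.8 in KCl, against 49.3 and 46.4 in sorbitol and 43.9 and 51.7 in YPD. In POL1 the NaCl and KCl libraries overlapped, while in POL30 and RFA2 both NaCl libraries were above both KCl libraries. SMC1, a core arm of the cohesin ring that holds sister chromatids together, had 39.4 and 33.2 FPKM in NaCl and 27.3 and 29.9 in KCl, against 13.3 and 12.3 in sorbitol and 14.9 and 14.2 in YPD. PDS5, a cohesin regulator, had 21.6 and 14.2 FPKM in NaCl and 12.2 and 12.8 in KCl, against 7.25 and 6.16 in sorbitol and 7.19 and 7.32 in YPD.

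Other cohesin genes, looked up after the values were seen, did not share this order to the same degree. IRR1, a further cohesin subunit, had 15.9 and 13.9 FPKM in NaCl and 11.4 and 14.5 in KCl, against 7.31 and 7.67 in sorbitol and 8.29 and 8.20 in YPD, a ratio of lowest salt to highest salt-free library of 1.37. SMC3, which pairs with SMC1 in the ring, had 24.5 and 18.5 FPKM in NaCl and 18.2 and 17.9 in KCl, against 18.6 and 17.2 in sorbitol and 17.9 and 14.4 in YPD, so its media overlapped. MCD1, the subunit that closes the ring, had 7.56 and 9.10 FPKM in NaCl and 9.65 and 13.8 in KCl, against 8.20 and 3.39 in sorbitol and 9.33 and 5.54 in YPD.

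A list of replication and histone genes had 35 measured members, and the 32 besides POL1, POL30 and RFA2 give the wider setting. In NaCl against sorbitol, by limma with Benjamini-Hochberg adjustment, 8 of the 32 were higher, 2 were lower and 22 did not pass. Over all genes tested 16.8% were higher and 13.6% lower. The median log2 difference was 0.23 over the 32 genes and 0.01 over all genes. The count rested on single libraries: it was 2 higher and 0 lower without NaCl 1, 5 higher and 0 lower without sorbitol 1, 6 higher and 4 lower without sorbitol 2, and 6 higher and 1 lower without NaCl 2. PRI2, the primase subunit that works with POL1, was higher by 1.49 ± 0.24 (limma estimate ± SE, log2 scale, n = 2 libraries per medium, adjusted p = 0.0023), and RFA1, the large subunit of RPA, by 1.16 ± 0.21 (adjusted p = 0.00461). POL3, the catalytic subunit of DNA polymerase delta, was higher by 1.61 ± 0.32 (limma adjusted p = 0.00689, but 0.0565 without NaCl 1), and MCM6, part of the replicative helicase, by 0.82 ± 0.23 (limma adjusted p = 0.0281, up to 0.155 without NaCl 1, NaCl 2 or sorbitol 1). The 2 lower genes, named after their values were seen, were the histone genes, whose near-identical copies can share reads, HHF1 (-0.82 ± 0.20, limma adjusted p = 0.0158, up to 0.115 without NaCl 1 or sorbitol 1) and HTA2 (-0.51 ± 0.14, limma adjusted p = 0.0234, up to 0.14 without NaCl 1, NaCl 2 or sorbitol 1).

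In KCl against sorbitol, which shares the sorbitol libraries with the comparison before, 1 of these 32 genes, PRI2, was higher and 0 were lower by limma. The background was 3.64% higher and 2.53% lower over all genes. At an unadjusted p under 0.05, 11 of the 32 were higher and 0 lower, while 1215 of the 5765 genes tested had such a p in either direction. The median log2 difference was 0.33 over the 32 genes against 0.01 over all genes. PRI2 was higher by 1.07 ± 0.24 (limma adjusted p = 0.0371), a call that held only when KCl 1 was the library left out (adjusted p up to 0.165 otherwise). In sorbitol against YPD 0 of the 32 passed by limma in either direction. At an unadjusted p under 0.05 it was 0 higher and 2 lower, while 1439 of the 5765 genes tested had such a p in either direction.

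The 4 annotated genes of glycosylation and the cell surface act on proteins and polymers on their way to the wall. PMT4, an endoplasmic reticulum enzyme that puts the first mannose on serine and threonine, had 262 and 203 FPKM in NaCl and 228 and 181 in KCl, against 120.2 and 105 in sorbitol and 119 and 118 in YPD. MNT2, named after an enzyme that lengthens such O-linked mannose chains, had 176 and 149 FPKM in NaCl and 147 and 141 in KCl, against 82.8 and 85.3 in sorbitol and 86.0 and 92.8 in YPD. In both genes the sorbitol and YPD libraries lay close together and all 4 salt libraries stood above them, at 1.61 to 2.07 times by the means. GPI19, a subunit of the enzyme that starts GPI anchors, the lipid tails of many surface proteins, had 22.1 and 21.8 FPKM in NaCl and 20.5 and 19.4 in KCl, against 9.57 and 10.7 in sorbitol and 9.94 and 10.3 in YPD. Its libraries of each medium lay close together. CRH11, an enzyme that joins chitin to glucan in Candida albicans, had 78.9 and 97.8 FPKM in NaCl and 68.8 and 68.2 in KCl, against 39.7 and 38.7 in sorbitol and 30.2 and 15.8 in YPD. In CRH11 both sorbitol libraries were above both YPD libraries, though the difference did not pass (0.81 ± 0.27 on the log2 scale, limma adjusted p = 0.12).

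The related enzymes fell into separate patterns. PMT1, another O-mannosyltransferase, had 397 and 294 FPKM in NaCl and 412 and 340.4 in KCl, against 238 and 208 in sorbitol and 239 and 235 in YPD, a ratio of 1.23 between the lowest salt and the highest salt-free library. PMT2 had 219 and 161 FPKM in NaCl and 204 and 163 in KCl, against 108 and 94.1 in sorbitol and 127 and 121 in YPD, a ratio of 1.27. Both thus had every salt library above every salt-free one, short of the threshold that PMT4 met, while in PMT6 NaCl 2 (21.5 FPKM) was under YPD 2 (23.7 FPKM). The other wall transglycosylases did not follow CRH11: CRH12 had 8.85 and 7.07 FPKM in NaCl and 24.8 and 8.10 in KCl, against 14.0 and 11.4 in sorbitol and 24.3 and 19.2 in YPD. UTR2 had 464 and 436 FPKM in NaCl and 506 and 473 in KCl, against 620.2 and 520.3 in sorbitol and 468 and 357 in YPD. GPI1 and GPI2, partners of GPI19 in the same enzyme, stood lower in NaCl than in the other media, with GPI2 at 14.6 and 16.1 FPKM in NaCl and 33.0 and 24.8 in KCl, against 24.5 and 21.4 in sorbitol and 29.7 and 24.7 in YPD. These relatives were chosen after the values were seen, and their differences from the 45 genes were not tested.

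**Figure D2:**
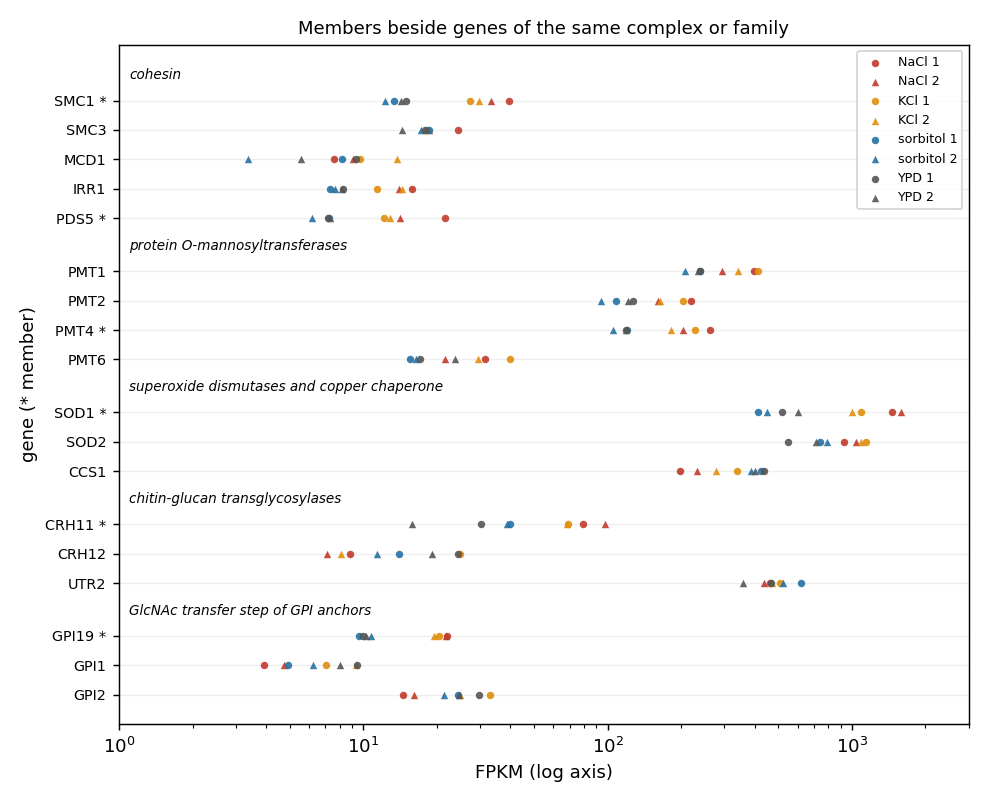
FPKM (log axis) in each of the 8 libraries for annotated members (marked with an asterisk) beside genes of the same complex or family, coloured by medium with circles for replicate 1 and triangles for replicate 2. The salt points of SMC1, PDS5, PMT4, SOD1, CRH11 and GPI19 lie to the right of all salt-free points, as do those of IRR1, PMT1, PMT2 and SOD2 by smaller ratios, whereas those of SMC3, MCD1, PMT6, CCS1, CRH12, UTR2, GPI1 and GPI2 do not.

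The list of cell wall genes had 35 measured members, of which CRH11 was the only one among the 45. Of the other 34, in NaCl against sorbitol 10 were higher, 5 were lower and 19 did not pass by limma, against 16.8% higher and 13.6% lower over all genes, and the median log2 difference was -0.17. Without NaCl 1 the count was 5 higher and 2 lower, without NaCl 2 it was 7 and 2, without sorbitol 1 it was 5 and 3, and without sorbitol 2 it was 8 and 3. The largest were the glucan-remodelling enzyme PHR1 at 5.82 ± 0.23, the glucanase-like wall protein SCW4 at 4.22 ± 0.25, the wall protein YWP1 at 2.43 ± 0.21 and the glucanase XOG1 at 1.96 ± 0.23 on the log2 scale, all of which kept their call without any 1 library. In KCl against sorbitol 2 of the 34 were higher and 1 lower by limma (3.64% and 2.53% of all genes). The 2 were XOG1 (1.07 ± 0.23, adjusted p = 0.0329) and ACF2, an endoglucanase (0.90 ± 0.18, adjusted p = 0.0269), and the 1 was the wall protein PIR1 (-0.84 ± 0.16, adjusted p = 0.0245). Each lost its call without at least 1 library, XOG1 without any library but KCl 1 (up to 0.151), ACF2 without either NaCl or sorbitol library or KCl 1 (up to 0.122), and PIR1 without KCl 2 or either sorbitol library (up to 0.122). At an unadjusted p under 0.05, 14 of the 34 were higher and 2 lower in sorbitol against YPD, while 1439 of the 5765 genes tested had such a p in either direction. By limma with adjustment 3 of the 34 were higher in sorbitol (PIR1, PGA4 and YWP1) and 0 lower (3.75% and 1.21% of all genes). Each of these 3 calls was lost without any of the 4 sorbitol and YPD libraries, and some of them also without NaCl 1 or NaCl 2.

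Lipid-related members were GDE1, PDR16 and CEM1. GDE1, which splits glycerophosphocholine into choline and glycerol phosphate, had 33.0 and 28.6 FPKM in NaCl and 15.7 and 16.6 in KCl, against 5.19 and 7.53 in sorbitol and 5.99 and 6.91 in YPD. Its NaCl mean was 4.77 times YPD and its KCl mean 2.50 times YPD. PDR16, a phosphatidylinositol transfer protein, had 93.3 and 84.8 FPKM in NaCl and 89.6 and 84.1 in KCl, against 49.3 and 53.6 in sorbitol and 32.8 and 52.9 in YPD. The 2 salts overlapped in PDR16. Its relatives, chosen after the values were seen, were nearer to level: SEC14 had 339.7 and 338 FPKM in NaCl and 274 and 298 in KCl, against 240.1 and 244 in sorbitol and 228 and 222 in YPD, a ratio of 1.13. In PDR17 and SFH5 the salt and salt-free libraries overlapped, at ratios of 0.926 and 0.977. CEM1, which extends fatty acids in mitochondria, had 55.7 and 70.2 FPKM in NaCl and 43.4 and 52.6 in KCl, against 22.7 and 23.0 in sorbitol and 25.7 and 27.3 in YPD. ETR1, a later enzyme of the same mitochondrial pathway, had 206 and 247 FPKM in NaCl and 139 and 122 in KCl, against 82.6 and 96.2 in sorbitol and 77.5 and 118 in YPD, which put KCl 2 next to YPD 2. In MCT1, ACP1 and PPT2, further genes of that pathway, the salt and salt-free libraries overlapped, at ratios of 0.751, 0.740 and 0.746.

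SOD1, the copper and zinc superoxide dismutase of the cytosol, was the most abundant of the 45 genes. It had 1462 and 1584 FPKM in NaCl and 1088 and 1003 in KCl, against 411 and 448 in sorbitol and 519.6 and 603 in YPD. Its sorbitol libraries were both under its YPD libraries, a difference that did not pass (-0.38 ± 0.13 on the log2 scale, limma adjusted p = 0.12) but passed after quantile normalization (-0.55 ± 0.11, limma adjusted p = 0.037). Its means were 3.55 times sorbitol in NaCl and 2.43 times sorbitol in KCl. SOD2, the manganese dismutase of mitochondria, had 924 and 1039 FPKM in NaCl and 1146 and 1093 in KCl, against 739 and 791 in sorbitol and 550.0 and 713 in YPD, a ratio of 1.17. CCS1, the chaperone that loads copper into SOD1, stood the other way: it had 198 and 233 FPKM in NaCl and 338 and 277 in KCl, against 423 and 388 in sorbitol and 437 and 401 in YPD.

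The oxidative stress list had 16 measured members, with SOD1 as the only one of the 45. Of the other 15, in NaCl against sorbitol 3 were higher (AHP1, DDR48 and CAT1) and 4 lower (YHB1, GPX3, CCP1 and TRR1) by limma, against 16.8% and 13.6% of all genes, of which TRR1 lost its call without any 1 of the NaCl and sorbitol libraries (adjusted p up to 0.133). By the size of the log2 difference AHP1 came first, at 4.88 ± 0.16. AHP1 and DDR48 had met the level and ratio conditions before both were removed. Their higher calls against sorbitol, in NaCl and in KCl, are therefore a description only. In KCl against sorbitol, where 3.64% of all genes were higher and 2.53% lower, 2 were higher by limma, the peroxiredoxin AHP1 by 2.94 ± 0.16 and DDR48, a stress gene removed from the 45 by its ID, by 1.58 ± 0.23 on the log2 scale. The 2 lower genes were the peroxidases GPX3 (-1.20 ± 0.19, limma adjusted p = 0.013, up to 0.0872 without KCl 2 or sorbitol 2) and CCP1 (-0.98 ± 0.13). In sorbitol against YPD 3 were higher (AHP1, DDR48 and OYE32) and 0 lower by limma (3.75% and 1.21% of all genes), and each lost its call without sorbitol 1 or YPD 1 (adjusted p up to 0.166).

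RFG1 was the annotated member with the widest difference. In Candida albicans it encodes a DNA-binding repressor of filamentous growth. It had 94.9 and 129 FPKM in NaCl and 41.4 and 64.9 in KCl, against 17.7 and 12.3 in sorbitol and 11.3 and 11.6 in YPD. The NaCl and KCl libraries did not overlap, and the NaCl mean was 2.11 times the KCl mean. NRG1, a repressor with a related role in that species, had 185 and 108 FPKM in NaCl and 94.3 and 69.3 in KCl, against 97.4 and 114 in sorbitol and 59.4 and 52.7 in YPD, so its salt and sorbitol libraries overlapped. The corepressor genes TUP1 and SSN6 also overlapped, at ratios of 0.906 and 0.995.

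In most of the 45 genes NaCl stood above KCl, although genes far higher in NaCl had been left out. Both NaCl libraries were above both KCl libraries in 34 of the 45 (26.9% of all genes tested), both KCl libraries were above both NaCl libraries in 4 (28.9% of all genes tested), and in 7 they overlapped. The limit on NaCl shaped these counts from above and the salt thresholds shaped them from below, so nothing is read from them. The NaCl mean was the higher in 40 genes, and its ratio to the KCl mean had a median of 1.35 and a range from 0.471 to 3.48. The median log2 difference was 0.43 over the 45 genes and -0.02 over all genes. By limma 12 of the 45 were called higher in NaCl than in KCl (6.80% of all genes) and 1 lower (3.99% of all genes), given as a description only. The 12 fell to 1 without NaCl 2 or without KCl 1, to 2 without NaCl 1 and to 5 without KCl 2, and it was 8 without either YPD library.

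The widest NaCl to KCl differences were in HYPBUDRAFT_8425, HYPBUDRAFT_96292 and HYPBUDRAFT_153176, at log2 differences of 1.87, 1.27 and 1.20 in that order. HYPBUDRAFT_8425 had 66.3 and 103 FPKM in NaCl and 13.6 and 35.1 in KCl, against 4.20 and 7.01 in sorbitol and 4.79 and 7.26 in YPD, and lay just inside the limit on NaCl at 1.89 times. HYPBUDRAFT_96292 had 739 and 588 FPKM in NaCl and 329 and 226 in KCl, against 106 and 93.9 in sorbitol and 62.9 and 84.5 in YPD. At the KCl end stood HYPBUDRAFT_106349 (-1.07), HYPBUDRAFT_152633 (-0.30) and HYPBUDRAFT_153858 (-0.20). HYPBUDRAFT_153858 had 39.4 and 32.2 FPKM in NaCl and 29.7 and 56.3 in KCl, against 14.9 and 12.2 in sorbitol and 13.0 and 14.5 in YPD, so its place at this end rested on KCl 2.

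**Figure D3:**
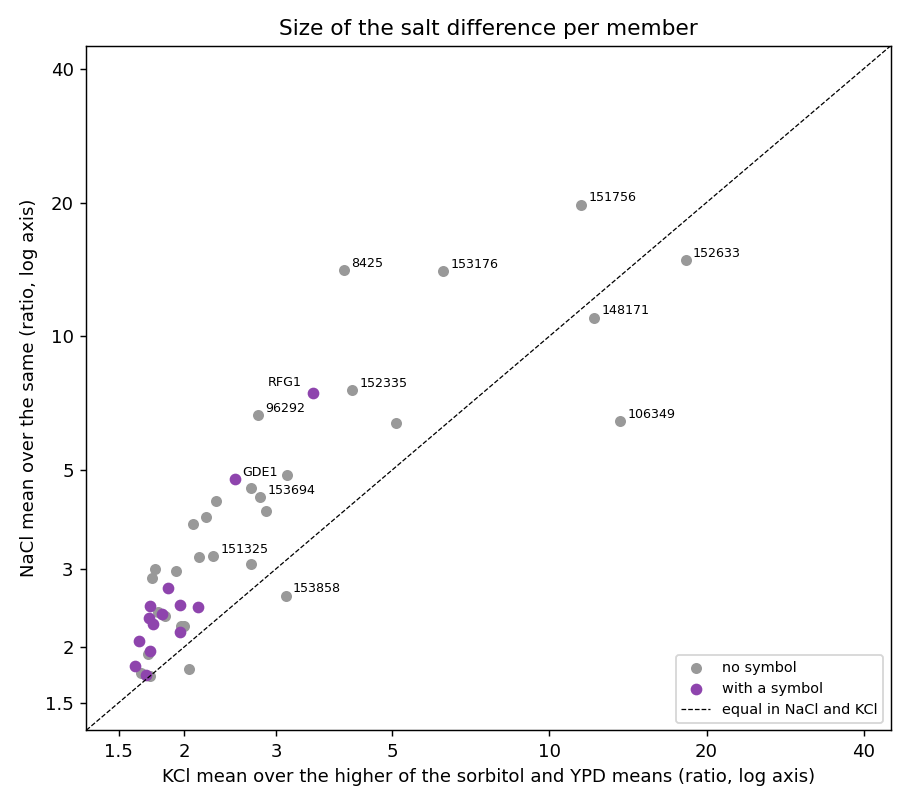
For each of the 45 genes, the NaCl mean (vertical, log axis) and the KCl mean (horizontal, log axis), each divided by the higher of the sorbitol and YPD means, with genes that have a symbol in purple and a dashed line where the salts are equal. The points above the line are the 40 genes with the higher NaCl mean, and HYPBUDRAFT_106349 lies farthest below it.

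Sorbitol against YPD gave few calls among the 45 genes, after the removals had taken out genes that were higher in sorbitol. By limma, 2 of the 45 (4.44%) were higher in sorbitol, against 3.75% of all genes tested, and 0 were lower, against 1.21% of all genes tested. Among the 63 genes that met the level and ratio conditions, a count added after the data were seen, it was 8 higher (12.7%) and 0 lower, so the share among the 45 depends on the removals. The 6 removed genes with a call, named after their values were seen, were HYPBUDRAFT_164360, MET3, DDR48, AHP1, SAP7 and ECM331. All of these but HYPBUDRAFT_164360 (2.03 ± 0.16 on the log2 scale) lost their calls without YPD 1, DDR48, AHP1, SAP7 and ECM331 also without sorbitol 1, and ECM331 also without sorbitol 2 or either NaCl library (adjusted p up to 0.16). Of the 45, at an unadjusted p under 0.05 it was 5 higher and 5 lower. Over all genes 1439 of the 5765 tested had such a p in either direction. The estimate was above 0 in 22 genes and below 0 in 23, with a median log2 difference of -0.01 over the 45 genes and -0.04 over all genes. Estimates ran from -0.66 (HYPBUDRAFT_151620) to 2.16 (HYPBUDRAFT_153176). Both sorbitol libraries were above both YPD libraries in 14 genes (26.8% of all genes tested), both YPD libraries were above both sorbitol libraries in 11 (29.5%), and in 20 they overlapped. Over all genes 216 were higher and 70 lower, and after quantile normalization 169 were higher and 96 lower, with 2 of the 45 higher and 1, SOD1, lower. With 2 libraries per medium a miss of the threshold does not show equal levels in sorbitol and YPD.

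The 2 genes that passed were HYPBUDRAFT_153176 and HYPBUDRAFT_153694, whose values in every library stand above. HYPBUDRAFT_153176 was higher in sorbitol by 2.16 ± 0.24 on the log2 scale (limma adjusted p = 0.0084), with both sorbitol libraries above both YPD libraries. The call was lost without sorbitol 1 (adjusted p = 0.077) and without YPD 1 (adjusted p = 0.052). HYPBUDRAFT_153694 was higher by 0.93 ± 0.20 (limma adjusted p = 0.039), again without overlap, but the call was lost when any library other than YPD 2 was left out, with adjusted p from 0.050 to 0.16. Next in order by adjusted p was HYPBUDRAFT_111703, with 154 and 153 FPKM in NaCl and 135 and 141 in KCl, against 74.0 and 64.2 in sorbitol and 46.3 and 51.2 in YPD. Its difference of 0.49 ± 0.14 did not pass (limma adjusted p = 0.077). Among the genes with a negative estimate, HYPBUDRAFT_151620 had 239 and 281 FPKM in NaCl and 96.6 and 185 in KCl, against 34.0 and 42.7 in sorbitol and 64.1 and 57.9 in YPD, which did not pass either (limma adjusted p = 0.19).

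**Figure D4:**
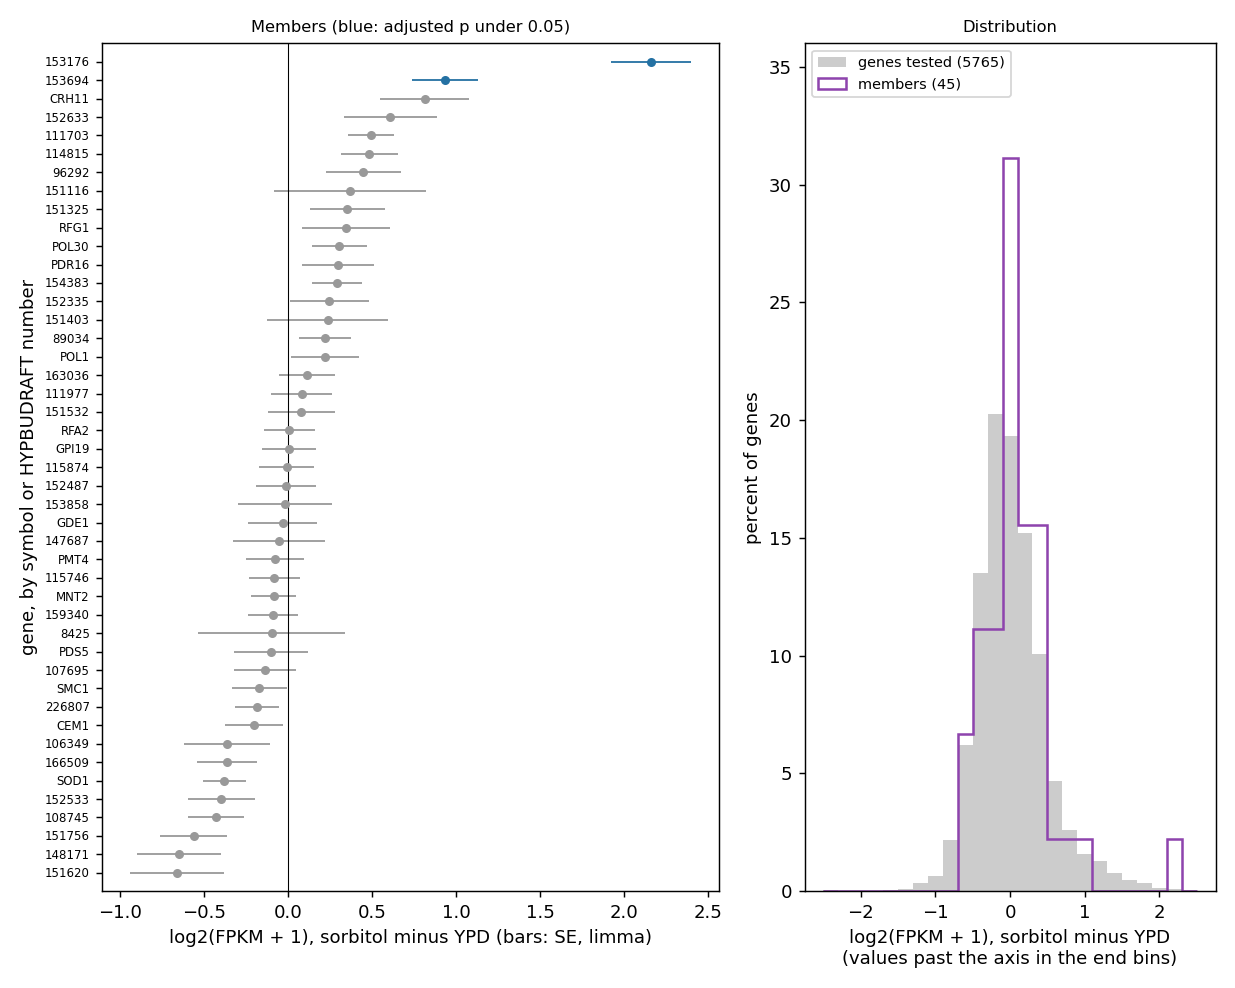
Left, the limma estimate of sorbitol minus YPD on the log2(FPKM + 1) scale with its SE for the 45 genes, the 2 with an adjusted p under 0.05 in blue. Right, the same estimates as a histogram for the 45 genes (purple outline) and for all 5765 genes tested (grey), both centred near 0, with HYPBUDRAFT_153176 alone at 2.16.

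For the contrasts that the choice used, limma's calls are given only for completeness. In NaCl against YPD 45 of the 45 were called higher (16.0% of all genes), in KCl against YPD 44 (6.45%), in NaCl against sorbitol 45 (16.8%) and in KCl against sorbitol 41 (3.64%). With 1 library left out, KCl against YPD gave 16 (without YPD 1), 25 and 26 (without KCl 1 and KCl 2), 29 (without YPD 2) or 41 to 44, and KCl against sorbitol gave 13 (without KCl 2), 14 (without sorbitol 2), 21 (without sorbitol 1), 29 (without KCl 1) or 38 to 40. The NaCl contrasts gave 42 to 45. Lower calls were 0 of the 45 in all 4, against 11.5%, 4.51%, 13.6% and 2.53% of all genes in the same order. Quantile normalization changed the split over all genes to 801 higher and 989 lower in NaCl against YPD, where it was 920 and 665, and to 354 higher and 335 lower in KCl against YPD, where it was 372 and 260.

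The libraries of a medium lay about as close together for these genes as for genes at 10 FPKM or more. The choice set the lowest salt library against the highest salt-free one, which works against genes whose libraries differ. Nothing is therefore read from this closeness. The median ratio of the higher to the lower library was 1.18 in NaCl, 1.11 in KCl, 1.15 in sorbitol and 1.15 in YPD, against 1.12, 1.15, 1.15 and 1.14 in the same order over genes at 10 FPKM or more. Over all the chosen genes, replicate 2 was the higher in 22 in NaCl, 24 in KCl, 26 in sorbitol and 30 in YPD. Replicate 1 was the higher in 23, 21, 19 and 15 in the same order. Among genes at 10 FPKM or more, replicate 2 was the higher in 48.2%, 46.0%, 47.5% and 56.25% in that order. In each of the 4 media replicate 2 was the higher in most of the exceptions, the genes whose libraries differed by over 1.5 times. In KCl 8 genes differed by over 1.5 times between the libraries, and in all 8 KCl 2 was the higher. In NaCl it was 5 genes, 4 of them higher in NaCl 2, in sorbitol 4 genes, all 4 higher in sorbitol 2, and in YPD 5 genes, 3 of them higher in YPD 2. No share over all genes stands beside these counts of exceptions, so nothing is read from them. HYPBUDRAFT_151116 differed most, with 322 and 529.8 FPKM in NaCl and 173 and 505 in KCl, against 79.9 and 53.4 in sorbitol and 50.8 and 50.1 in YPD. HYPBUDRAFT_151403 had 34.6 and 63.5 FPKM in NaCl and 29.2 and 56.8 in KCl, against 15.2 and 16.8 in sorbitol and 11.4 and 15.8 in YPD, so replicate 2 was the higher in every medium.

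The rule for giving values in every library, stated below, did not take 20 of the genes, some of which are described all the same. These 20 had mean salt levels of 17.4 to 383 FPKM (median 67.7). They stood at 1.83 to 6.54 times the mean of the salt-free libraries (median 2.63). Over all 45 genes that last ratio had a median of 2.72, with 3.11 in the 31 genes without a symbol and 2.21 in the 14 with one. HYPBUDRAFT_226807 was nearly equal in the 2 salts, with 102 and 107 FPKM in NaCl and 101 and 107 in KCl, against 56.2 and 50.1 in sorbitol and 59.0 and 62.1 in YPD. Annotated gene length had a median of 1165 nt (408 to 4881), against 1311 nt over the genes tested. In the annotation 1 pair of the 45 stood side by side, MNT2 and HYPBUDRAFT_159340. HYPBUDRAFT_159340 had 186 and 166 FPKM in NaCl and 147 and 166 in KCl, against 93.8 and 78.2 in sorbitol and 88.1 and 94.7 in YPD, levels close to those of MNT2.

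The list of the HOG stress cascade and glycerol metabolism, the textbook answer to osmotic stress, had 28 measured genes and held none of the 45. In KCl against sorbitol 1 of the 28 was higher and 3 were lower by limma (3.64% and 2.53% of all genes). The lower genes were RHR2, the glycerol phosphatase, at -1.30 ± 0.19, GPD1, the glycerol phosphate dehydrogenase, at -0.71 ± 0.14, and XYL2, a polyol dehydrogenase, at -0.91 ± 0.13 on the log2 scale, and the higher one was ARD, an arabitol dehydrogenase in Candida albicans, at 0.99 ± 0.19. The calls of GPD1 (adjusted p = 0.0248, up to 0.147 without KCl 1, KCl 2 or sorbitol 2), XYL2 (limma adjusted p = 0.00989, up to 0.0664 without KCl 2 or sorbitol 2) and ARD (limma adjusted p = 0.0228, up to 0.121 without KCl 1 or either sorbitol library) rested on single libraries. In NaCl against sorbitol 2 of the 28 were higher (ARD and the aldose reductase GRE3) and 5 lower (RHR2, GPD1, XYL2, PTC1 and RCK2) by limma (16.8% and 13.6% of all genes), with 3 lower without NaCl 1 or NaCl 2, where PTC1 and RCK2 lost their calls. In sorbitol against YPD 0 passed in either direction. At an unadjusted p under 0.05 it was 3 higher and 1 lower, while 1439 of the 5765 genes tested had such a p in either direction. RHR2 had 1009 and 945 FPKM in NaCl and 929 and 1066 in KCl, against 1987 and 3013 in sorbitol and 1520.4 and 1493 in YPD. Against sorbitol the glycerol genes RHR2 and GPD1 thus stood in the opposite order to the 45 genes, lower in both salts. In KCl against YPD 1 of the 28 was called higher and 0 lower by limma (6.45% and 4.51% of all genes). In NaCl against YPD 4 were called higher and 4 lower (16.0% and 11.5% of all genes). Some of these NaCl calls were lost without NaCl 1, NaCl 2 or YPD 1.

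The list of cation and anion transport had 20 measured genes and likewise held none of the 45. In KCl against sorbitol 2 were higher and 0 lower by limma (3.64% and 2.53% of all genes): PHO89, a sodium-coupled phosphate transporter (2.61 ± 0.38, limma adjusted p = 0.0102, but 0.0606 without sorbitol 2), and CNH1, a cation antiporter (0.89 ± 0.16, limma adjusted p = 0.0176, up to 0.113 without KCl 2 or either sorbitol library). In NaCl against sorbitol 5 were higher and 1 lower by limma (16.8% and 13.6% of all genes), with the potassium transporter HAK1 first at 2.75 ± 0.27, a call kept without any 1 library. The other 4 higher genes, MID1, PHO89, PMC1 and VCX1, and the lower one, ALR1, lost their calls without NaCl 1 (adjusted p up to 0.257 without 1 library), and the count was 3 higher and 0 lower without NaCl 2 and 2 higher and 0 lower without sorbitol 2.

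Of 18 gene lists looked up, 3 held any of the 45 genes, those described above. The other 15 lists, with 392 measured genes, held none. Besides the HOG and ion transport lists they covered heat shock (21 measured genes), amino acid synthesis (55) and transport (20), sulfur and one-carbon metabolism (28), the glyoxylate cycle and related carbon use (22), nucleotide synthesis (33), ribosome assembly (39 for each subunit), translation (40), RNA polymerases I and III (15), the exosome (8), nuclear transport (17) and tRNA modification (10). Some of these lists hold genes that the ID list or the limit on NaCl removed, such as MLS1, ICL1, MET3 and CDC21, so a list at 0 does not mean that its genes were level across the media. CDC21, the thymidylate synthase that makes a DNA precursor, had 443 and 464 FPKM in NaCl and 143 and 125 in KCl, against 38.1 and 34.5 in sorbitol and 41.1 and 52.3 in YPD, and was removed by the limit on NaCl.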

How the data were processed

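RNA abundance was measured by RNA sequencing in 8 libraries, 2 for each of 4 media. The deposited files hold 1 value per gene and library. They state no unit. FPKM, as made by the authors, was assumed, since the values are not whole numbers. Low values, times gene length less a fitted 200 or 210 nt, also lay near multiples of a fixed step in each library. TopHat and Cufflinks are named, without versions, per the submitters' processing notes. The library kit marks strand, per the labels' protocols. Build, annotation and strand option of the counting step are unknown: not given in the sources used here.

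A total of 5765 genes that reached 1 FPKM in 2 or more libraries were tested with limma 3.58.1 in R 4.3.3 on log2(FPKM + 1), as 4 groups in 1 fit over 8 libraries with an intensity trend, and p-values were adjusted over all genes of a comparison by the Benjamini-Hochberg method with calls under 0.05. Residual degrees of freedom were 4, or 8.31 with limma's prior. Log2 differences understate the change of genes near 1 FPKM. The depth per library was read from the step between low values, which gives about 153 to 336 fragments per kb at 10 FPKM. These are per kb of gene length less the fitted 200 or 210 nt, so short genes hold fewer per kb of full length.

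The 45 genes and the lists were chosen with earlier results of these data known, and the related genes and the grouping by role after the values were seen. Values in every library follow a rule that took the genes with a symbol, the 5 largest ratios, the 5 highest salt levels, the genes called in sorbitol against YPD, the 3 largest and 3 smallest NaCl to KCl differences and the genes at the ratio threshold. HYPBUDRAFT_111703, HYPBUDRAFT_151620, HYPBUDRAFT_151116, HYPBUDRAFT_151403, HYPBUDRAFT_226807 and HYPBUDRAFT_159340 fall outside it and were named after their values were seen. From each list, up to 4 called genes were named by size. Alternatives covered the thresholds of the choice, pseudocount, filter, scaling, the fit and each library left out. A planned search for promoter motifs was not run because promoter sequences were not used here.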

Additional observations from a re-analysis of the deposited data

How the results depend on the processing

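The number of genes that meet the conditions, 45, was 42 after median-of-ratios scaling, 43 after quantile normalization (39 of them shared), 48 and 36 with the level threshold at 5 and 20 FPKM, 57 without the limit on NaCl and 49 without the ID list. It was 118 with the ratio threshold set midway between 1 and 1.5 and 14 with a threshold of 2. With 1 library left out it ran from 48 to 81, the most without KCl 1 (44 of the 45 kept). Leaving out a library also takes it out of the level and ratio conditions, so a rise in this number follows largely from the rule. The count of the 45 called in sorbitol against YPD, 2, was 3 after quantile normalization (2 higher and 1 lower), 1 with only the 4 sorbitol and YPD libraries and 1 with no intensity trend, and it ran from 0 to 2 with 1 library left out (0 without sorbitol 1 or without YPD 1). In alternatives chosen after seeing the data, it was 8 over the 63 genes that met the level and ratio conditions, and 2 of the 43 genes whose libraries of each medium lie within 2 times were called. Over all genes that comparison gave 286 calls, but 20 with only those 4 libraries, 112 with no intensity trend and 4 to 245 with 1 library left out. With the replicate number as a block it gave 516, while 2 of the 45 were still called. The labels give same-numbered libraries no shared culture or day. Their deviations correlated at 0.26 to 0.45 in 4 of the 6 pairs of media, sorbitol with YPD (0.30) among them, but at 0.10 for NaCl with sorbitol and -0.13 for NaCl with YPD, so the block was kept as an alternative and a shared replicate effect was not settled. The median log2 difference over the 45 was 0.43 for NaCl minus KCl, or 0.35 to 0.51 with 1 library left out, the lowest without KCl 1. For sorbitol minus YPD it was -0.01, or 0.0624 after quantile normalization and -0.0568 to 0.0782 with 1 library left out. The causes of these shifts were not tested. With 2 libraries per medium and about 153 to 336 fragments per kb at 10 FPKM, small differences near the thresholds could not be resolved.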
